A study of Mus musculus with 24 samples.

Results

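Skin of allografted mice that had been given an antibody against IFNAR1 was compared with skin of syngeneic mice at day 14, to describe what still differed early while the type I interferon receptor was blocked. The comparison rests on 8 of the 24 Affymetrix arrays of the series, which are the 4 whose titles name anti-IFNAR1 at day 14 and the 4 whose titles name the control at day 14. All recipients were female RAG2-/- mice. The syngeneic mice had received Balb/c splenocytes. The GVH-SSc mice, which model a scleroderma-like graft-versus-host disease, were given B10.D2 splenocytes together with either the isotype or the anti-IFNAR1 antibody. RNA came from whole shaved skin over the shoulder blades. The titles name no antibody for the syngeneic mice, so the donor strain and the injected antibody cannot be told apart in this comparison. The labels do not say that the 4 arrays of a group are separate animals, and p-values then measure only the spread between arrays.

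IFNAR1 is one chain of the receptor through which interferon alpha and interferon beta act. Signalling from the receptor switches on antiviral genes such as the Ifit, Oas and Mx families through a response element in front of them. Interferon gamma, made by activated T cells and natural killer cells, uses a different receptor and induces chemokines, guanylate-binding proteins and antigen presentation genes, and many genes answer to both. In graft-versus-host disease donor T cells enter the skin of the host, and recipients without RAG2 cannot assemble antigen receptors of their own.

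Under IFNAR1 blockade 5 of 15 T cell receptor and co-receptor genes, among them Cd3d and Cd8a, 4 of 23 chemokine genes and 2 of 23 macrophage and monocyte genes were called higher than in syngeneic skin, and 0 of 28 type I interferon-inducible genes were called. The 17 interferon gamma-inducible, 14 class I antigen presentation and 19 keratinocyte stress genes also held 0 calls, with medians of 1.34, 0.7 and 0.89. An absence of calls is thus not particular to the type I list. Without anti-IFNAR1 array 1 or 3 or syngeneic array 3 the chemokine and macrophage lists each held 0 calls. Of 18193 genes, 62 were higher in anti-IFNAR1 than in syngeneic skin (0.341%) and 142 were lower (0.781%), by limma at an adjusted p under 0.05. Of these, 43 higher and 34 lower genes differed by at least 2-fold. The largest rises were those of Igkv8-30, Saa3, Jchain, Cxcl13 and Ms4a4b, and the largest falls by the brightest probe sets were those of Sncg, Septin3, Comp and Dnm1, with another probe set of Septin3 in the opposite direction (0.57). Values are log2(intensity + 16), on which a change of 1 is a doubling of intensity + 16. Errors of changes are SE from the spread pooled over all 24 arrays, for groups of 4 arrays. Where the arrays of a group split, such an SE can understate the spread of the groups compared. The median change of all genes was -0.01. The arrays of both groups did not overlap for 1362 genes (7.49%), and 192 of the 204 called genes were among them. Centring each array on its median moved the median of all genes by 0.149 and gave 112 higher and 38 lower genes, and quantile normalization gave 69 higher and 46 lower. The test borrowed the spread of all 24 arrays. With only the 8 arrays compared, limma called 0 genes (smallest adjusted p 0.0558), although 1982 had an unadjusted p under 0.05.

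Some arrays stood apart. Among control probe sets, the ratio of the Gapdh 3' to 5' signal, which rises as RNA degrades, ran on the log2 scale from 0.97 to 6.36 on syngeneic, from 0.62 to 2.16 on isotype and from 2.13 to 4.81 on anti-IFNAR1 arrays. Syngeneic array 4 (6.36) and anti-IFNAR1 arrays 3 (4.81) and 4 (4.19) lay above 4. On day 28, syngeneic array 3 (4.1) and isotype array 1 (4.59) also lay above 4. The fit without all arrays above 4 kept syngeneic arrays 1, 2 and 3 and anti-IFNAR1 arrays 1 and 2 of day 14. In that fit 8 genes were called higher and 1 lower. The higher ones were Igkv8-30, Jchain, Cd3d, Cxcr6, Trav9d-3, Angptl7, Lncpint and Adam4. Syngeneic array 3 had a mean of 8.04 over 23 hair follicle genes, against 4.75 to 5.4 on the other syngeneic and 4.72 to 4.77 on the anti-IFNAR1 arrays. Above 8 on day 28 were syngeneic arrays 3 (11.46) and 4 (10.51) and anti-IFNAR1 array 2 (12.81). Without all arrays above 8, 18 genes were called higher and 52 lower. Leaving out 1 of the 8 arrays at a time gave between 30 calls (without anti-IFNAR1 array 3) and 415 (without syngeneic array 2). It gave 45 without anti-IFNAR1 array 1, 111 without array 2 and 38 without array 4, and 66 without syngeneic array 3. Exactly 19 genes were called without each of the 8 arrays, 10 higher and 9 lower. The higher ones were Angptl7, Aoah, Cd3d, Cd8a, Cxcr6, Gzmk, Jchain, Ms4a4b, Rps29 and Trav9d-3. The lower ones were Gosr2, Kcp, Lysmd4, Mrpl51, Obsl1, Siglecf, Slco5a1, Tuba1a and Ybx3.

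Neither the disrupted gene nor the antibody's target was called. Rag2, the gene disrupted in the recipients, read 4.98, 4.6, 4.59 and 4.68 on syngeneic arrays 1 to 4 and 4.59, 4.59, 4.65 and 4.59 on anti-IFNAR1 arrays 1 to 4. The position of its probe set relative to the deleted stretch is unknown, and its level is therefore no check of the genotype. Ifnar1 read 7.86, 8.12, 7.94 and 7.17 in syngeneic and 8.22, 8.14, 7.93 and 8.14 in anti-IFNAR1 skin, with overlapping groups (0.34 ± 0.29, adjusted p = 0.701). An antibody acts on the protein, so the transcript level does not check the blockade either.

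T cell genes were among those called without each of the 8 arrays. Of 15 measured genes of the T cell receptor and its co-receptors, 5 rose (Cd3d, Cd3e, Cd3g, Cd8a and Lat) and 0 fell, with a median change of 0.6 against -0.01 for all genes. The median was 0.35 without syngeneic array 3 and 0.37 without the arrays of high Gapdh ratio. Cd3d, a signalling chain of the receptor complex, read 5.18, 4.39, 4.39 and 4.48 on the syngeneic arrays and 7.5, 6.83, 7.82 and 8.03 on the anti-IFNAR1 arrays. Every anti-IFNAR1 array lay above every syngeneic array, and the gene rose by 2.94 ± 0.23 (adjusted p = 1.51e-06). Cd8a, a chain of the CD8 co-receptor on cytotoxic T cells, read 5.54, 5.29, 5.37 and 6.09 against 7.72, 7.32, 7.89 and 7.64. It rose by 2.07 ± 0.27 (adjusted p = 0.00147), again with no overlap. Its other probe sets gave 1.92, 0.34, 0 and 0.02, and the mean of all of them rose by 0.87. In bulk skin, more cells of a type and more RNA per cell cannot be told apart.

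Other parts of the receptor rose less evenly. Cd3e, another signalling chain, read 7.34, 6.16, 5.3 and 6.45 in syngeneic and 8.29, 7.78, 9 and 8.42 in anti-IFNAR1 skin (2.06 ± 0.42, adjusted p = 0.0303). Cd3g, the gamma chain, read 4.76, 4.56, 4.48 and 4.56 against 6.94, 5.71, 5.93 and 6.18 (1.6 ± 0.29, adjusted p = 0.0181). Lat, the adaptor that carries the receptor signal onward, changed by 1.82 ± 0.38 (adjusted p = 0.0305). These 3 genes also did not overlap between the groups. The calls of Cd3e and Lat were lost without anti-IFNAR1 array 1, 3 or 4 or syngeneic array 3, and that of Cd3g without anti-IFNAR1 array 1 or 4. Without anti-IFNAR1 array 1 or 4 the list held 2 called genes, and without anti-IFNAR1 array 3 or syngeneic array 3 it held 3. Without the arrays of high Gapdh ratio it held 1, and without those of high hair follicle mean 2. Cd8b1, the beta chain of the CD8 co-receptor, read 4.36, 4.36, 4.35 and 4.36 against 5.59, 4.52, 4.81 and 4.99, without a call (0.62 ± 0.23, adjusted p = 0.208).

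A probe set for the T cell receptor alpha variable segment Trav9d-3 read 6.16, 5.58, 5.29 and 5.52 in syngeneic and 7.85, 6.88, 7.91 and 7.77 in anti-IFNAR1 skin. It rose by 1.97 ± 0.2 (adjusted p = 4.87e-05), and the other probe sets of the segment gave 2.21, 0.32, -0.01 and 0, with a rise of 0.9 for the mean of all. Variable segments have near-identical copies, so the value may belong to several of them. Ms4a4b, a membrane protein of T cells, read 8.62, 8.82, 6.11 and 5.92 against 11.11, 10.03, 10.79 and 11.02. Syngeneic arrays 1 and 2 were high and arrays 3 and 4 low, yet all 4 lay below the anti-IFNAR1 arrays, and the gene rose by 3.37 ± 0.5 (adjusted p = 0.00354). Cxcr6, a chemokine receptor of tissue-resident T cells, read 5.82, 5.4, 5.07 and 5.89 against 7.52, 7.52, 8.2 and 8.16 (2.31 ± 0.25, adjusted p = 0.000112). It was the 1 gene called of 13 in the list of T cell migration and residence, whose median change was 0.41 and 0.15 without syngeneic array 3. That count was 3 without syngeneic array 1 and 2 without syngeneic array 2.

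**Figure D1:**
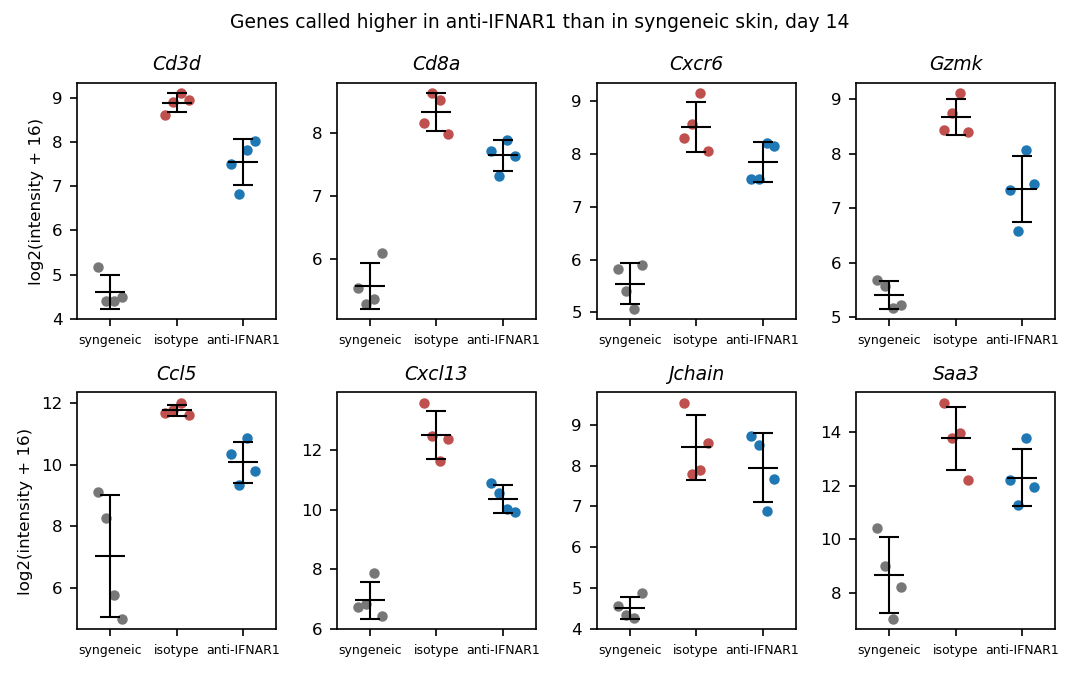
Per-array values of 8 genes called higher in anti-IFNAR1 than in syngeneic skin at day 14, on the log2(intensity + 16) scale, with 4 arrays each of syngeneic (grey), isotype (red) and anti-IFNAR1 (blue) skin. Horizontal bars are means and error bars SD; for Cd3d all anti-IFNAR1 arrays (6.83 to 8.03) lie above the syngeneic arrays (4.39 to 5.18) and below the isotype arrays (8.61 to 9.1).

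Cytotoxic genes were mostly not called. Of 17 measured, 2 rose and 0 fell, with a median of 0.15, which ran from 0.01 (without syngeneic array 3) to 0.48 (without syngeneic array 1) when 1 array was left out. Gzmk, which encodes the granule protease granzyme K, read 5.68, 5.57, 5.16 and 5.23 in syngeneic and 7.33, 6.59, 8.07 and 7.44 in anti-IFNAR1 skin, without overlap (1.94 ± 0.31, adjusted p = 0.00932). Nkg7, a granule membrane protein, read 8.11, 6.83, 4.82 and 5.62 against 8.43, 7.53, 8.8 and 8.56. Its groups overlapped at syngeneic array 1 (1.98 ± 0.45, adjusted p = 0.04), and the call was lost without anti-IFNAR1 array 1, 3 or 4 or syngeneic array 3 or 4. Each of those arrays left 1 called gene in the list, and 3 were called without syngeneic array 1. Without the arrays of high Gapdh ratio the list held 0 called genes, and without those of high hair follicle mean 1. Gzmb, granzyme B, read 9.31, 8.01, 5.13 and 5.41 against 9.84, 8.67, 9.22 and 8.83. Syngeneic array 1 lay inside the anti-IFNAR1 range, array 2 below it and arrays 3 and 4 further below, and the difference of 2.18 ± 0.67 was not called (adjusted p = 0.116). Of 14 activation and checkpoint receptors 0 were called, with a median of 0.45, and 1 was called without syngeneic array 2. Pdcd1, which encodes the checkpoint receptor PD-1, differed by 0.53 ± 0.24 (adjusted p = 0.317).

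Ifng, the gene of interferon gamma, was not called either. It read 6.81, 4.9, 4.58 and 4.82 in syngeneic skin and 6.83, 5.94, 7.69 and 6.71 in anti-IFNAR1 skin. Only syngeneic array 1 entered the anti-IFNAR1 range, and the difference of 1.52 ± 0.44 was not called (adjusted p = 0.098). Isotype skin read 7.74, 9.13, 8.32 and 7.03. The difference of Ifng between anti-IFNAR1 and isotype skin was -1.26 with a 95% interval from -2.19 to -0.34 (adjusted p = 0.157).

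Among 23 chemokine genes 4 rose and 0 fell, with a median of 0.32 that ran from 0.09 (without anti-IFNAR1 array 1) to 0.81 (without syngeneic array 1). Cxcl13, which attracts B cells and follicular helper T cells, read 6.75, 6.82, 7.86 and 6.43 in syngeneic and 10.9, 10.57, 10.02 and 9.91 in anti-IFNAR1 skin. The groups were far apart (3.38 ± 0.81, adjusted p = 0.0477). Ccl5, a chemokine made by activated T cells, read 9.12, 8.27, 5.76 and 5 against 10.33, 9.33, 10.87 and 9.79. Syngeneic arrays 1 and 2 were high again, and the gene rose by 3.05 ± 0.63 (adjusted p = 0.0303). Ccl3, which attracts monocytes and T cells, read 5, 4.57, 4.44 and 4.52 against 7.24, 5.49, 7.23 and 6.11, with no overlap (1.89 ± 0.36, adjusted p = 0.0203). Ccl8, another monocyte attractant, read 13.97, 13.98, 11.99 and 12.3 against 15.3, 14.61, 15.11 and 14.84 (1.9 ± 0.42, adjusted p = 0.0377).

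The chemokine calls depended on single arrays. Cxcl13 lost its call without any 1 of the 8 arrays. Ccl5 lost it without anti-IFNAR1 array 1, 3 or 4 or syngeneic array 3 or 4, and Ccl3 without anti-IFNAR1 array 1 or 3 or syngeneic array 3. Ccl8 lost it without any anti-IFNAR1 array or without syngeneic array 3 or 4. The list held 0 called genes without anti-IFNAR1 array 1 or 3 or syngeneic array 3, 1 without anti-IFNAR1 array 4 or syngeneic array 4, and 2 without anti-IFNAR1 array 2. It held 0 without the arrays of high Gapdh ratio and 0 without those of high hair follicle mean. Ccl2 and Ccl7, monocyte attractants that respond to type I interferon, were not called against syngeneic skin. Ccl2 read 8.52, 7.19, 5.22 and 5.56 against 7.98, 5.82, 7.81 and 6.43 (0.39 ± 0.66, adjusted p = 0.944). Ccl7 differed by 0.15 ± 0.55 (adjusted p = 0.984). Against isotype skin both were lower in anti-IFNAR1 skin, by -3.55 with a 95% interval from -4.93 to -2.16 for Ccl2 (adjusted p = 0.0174) and by -3.38 from -4.54 to -2.23 for Ccl7 (adjusted p = 0.00839). In that comparison 148 of 18193 genes were called in either direction (0.813%). Alternative fits were not run for it.

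Few macrophage genes were called. Of 23 macrophage and monocyte genes 2 rose, Clec4d and Ms4a7, and 0 fell, and 22 lay above 0 with a median of 0.92. Clec4d, a C-type lectin receptor of myeloid cells, read 8.05, 4.92, 4.81 and 4.82 in syngeneic and 7.75, 7.45, 9.99 and 8.2 in anti-IFNAR1 skin. Syngeneic array 1 lay inside the anti-IFNAR1 range, and the call was close to the threshold (2.7 ± 0.65, adjusted p = 0.0497). Ms4a7, a macrophage membrane protein, read 6.78, 7.44, 7.35 and 7.34 against 9.55, 8.3, 8.66 and 8.89 without overlap (1.62 ± 0.33, adjusted p = 0.0287). Clec4n, a lectin receptor for fungal sugars, differed by 2.31 ± 0.57 (adjusted p = 0.0552). Fcgr4, an activating antibody receptor, differed by 2.67 ± 0.71 (adjusted p = 0.0706). Neither was called, and Itgam, an integrin chain of myeloid cells, differed by -0.08 ± 0.42 (adjusted p = 0.987).

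The genes described next were called one by one and belong to none of the lists, so they carry no count for a group. All were named for the size of their change except Mertk, which was chosen after its value was seen. Fpr2, a formyl peptide receptor of phagocytes, read 8.93, 7.98, 4.92 and 7.35 in syngeneic and 10.02, 9.39, 11.71 and 10.4 in anti-IFNAR1 skin (3.09 ± 0.62, adjusted p = 0.0281). Cybb, the catalytic subunit of the phagocyte NADPH oxidase, read 9, 9.95, 8.39 and 8.35 against 10.91, 10.4, 11.6 and 11.17 (2.1 ± 0.39, adjusted p = 0.0184). Aoah, an enzyme that inactivates bacterial lipopolysaccharide, read 5.7, 5.16, 4.73 and 4.96 against 7.09, 6.32, 7.49 and 7.01 (1.84 ± 0.25, adjusted p = 0.00193). The groups of all 3 genes were separate. Slc11a1, a metal transporter of the phagosome, rose by 1.95 ± 0.42 (adjusted p = 0.0336). Mertk, a receptor for the uptake of dying cells, rose by 1.48 ± 0.29 (adjusted p = 0.0248), and Cd300c2, an activating receptor of myeloid cells, by 1.56 ± 0.35 (adjusted p = 0.0377). F7, which encodes coagulation factor VII, rose by 2.62 ± 0.56 (adjusted p = 0.0325) with overlapping groups. Aoah kept its call without each array. Fpr2 lost it without anti-IFNAR1 array 1, 3 or 4, Cybb without anti-IFNAR1 array 3 or 4 or syngeneic array 3, and Mertk without anti-IFNAR1 array 1, 3 or 4 or syngeneic array 3. Slc11a1, F7 and Cd300c2 lost it without anti-IFNAR1 array 1, 3 or 4 or syngeneic array 3 or 4. Ms4a7 lost it without anti-IFNAR1 array 1, 3 or 4 or syngeneic array 1 or 3, and Clec4d without any single array other than syngeneic array 1. The macrophage list held 3 called genes without syngeneic array 1 or 2, 1 without anti-IFNAR1 array 2 or syngeneic array 4, and 0 without any other single array. It held 0 without the arrays of high Gapdh ratio and 1 without those of high hair follicle mean.

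Of 9 measured B and plasma cell genes 2 rose, Jchain and Cd22, and 0 fell, with a median of 0.03. Jchain, which joins IgM and IgA subunits in plasma cells, read 4.56, 4.34, 4.27 and 4.86 in syngeneic and 8.72, 8.51, 6.88 and 7.68 in anti-IFNAR1 skin, with no overlap (3.44 ± 0.59, adjusted p = 0.0137). A probe set for the kappa variable segment Igkv8-30 read 4.68, 4.89, 6.83 and 7.6 against 10.47, 10.09, 9.5 and 9.1 (3.79 ± 0.7, adjusted p = 0.0181). Syngeneic arrays 3 and 4 were the higher ones here, unlike in Ms4a4b or Ccl5. The segment has near-identical copies, and its value is uncertain for that reason. Cd22, an inhibitory receptor of B cells, rose by 1.2 ± 0.27 (adjusted p = 0.0377). Igkv8-30 is in none of the lists. Jchain kept its call without each array, Igkv8-30 lost it without anti-IFNAR1 array 1 or 3, and Cd22 without anti-IFNAR1 array 1, 3 or 4 or syngeneic array 1, 2 or 3. The list held 1 called gene without each of those 6 arrays, 1 without the arrays of high Gapdh ratio and 0 without those of high hair follicle mean.

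None of the listed genes inducible by type I interferon was called against syngeneic skin, and inducible genes outside the list are not counted. Of 28 measured, 0 rose and 0 fell. Their median was 0.26, with changes from -1.26 to 0.96, and with 1 array left out it ran from -0.06 (without anti-IFNAR1 array 1) to 0.56 (without anti-IFNAR1 array 2). It was 0.06 without anti-IFNAR1 array 4, 0.47 without syngeneic array 1, -0.03 without array 3 and 0.16 without array 2 or 4. Oasl1, an antiviral protein related to oligoadenylate synthetases, read 5.02, 6.16, 5.91 and 6.18 in syngeneic and 6.87, 4.63, 5.05 and 6.33 in anti-IFNAR1 skin (-0.1 ± 0.41, adjusted p = 0.986). The anti-IFNAR1 arrays spanned the syngeneic range, with arrays 1 and 4 high and arrays 2 and 3 low. Isotype skin read 8.71, 8.89, 8.51 and 8.6, above both groups, and anti-IFNAR1 differed from isotype by -2.96 with a 95% interval from -3.82 to -2.1 (adjusted p = 0.00286).

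The master regulator Irf7, a transcription factor of the interferon response, read 7.7, 7.86, 6.05 and 7.31 in syngeneic and 8.7, 6.5, 7.07 and 7.86 in anti-IFNAR1 skin (0.3 ± 0.43, adjusted p = 0.908). Ifit2, an RNA-binding antiviral protein, read 8.76, 8.06, 7.05 and 7.25 against 8.58, 6.67, 7.29 and 6.86 (-0.43 ± 0.49, adjusted p = 0.836). Mx1, an antiviral GTPase, read 6.61, 6.1, 5.38 and 5.1 against 6.79, 5.11, 5.26 and 5.81 (-0.06 ± 0.47, adjusted p = 0.997). In each of these genes anti-IFNAR1 array 1 was the highest of its group, and the groups overlapped. Slfn4, a myeloid interferon-inducible gene, read 8.56, 8.56, 7.93 and 8.56 against 7.81, 6.61, 6.95 and 7.19. All its anti-IFNAR1 arrays were below the syngeneic arrays, without a call (-1.26 ± 0.54, adjusted p = 0.279). Against isotype skin 6 of the 28 were lower in anti-IFNAR1 skin and 0 were higher, beside 0.813% of all genes called in either direction. The interval of the difference from syngeneic skin ran from -0.96 to 0.77 for Oasl1 and from -1.04 to 0.92 for Mx1, so smaller differences are not settled by these arrays. Ifnb1, the gene of interferon beta, read 4.38 to 4.4 on every array of both groups, near the lowest values of the table.

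Of 17 genes induced by interferon gamma 0 were called. Their median was 1.34, and all 17 lay above 0. The mean over the list was 10.87, 9.82, 7.52 and 7.76 on syngeneic arrays 1 to 4 and 10.51, 9.92, 10.77 and 10.11 on the anti-IFNAR1 arrays. Syngeneic array 1 lay above every anti-IFNAR1 array, array 2 just below the lowest and arrays 3 and 4 well below it. Without syngeneic array 1 the count was 9 higher with a median of 2.09, without syngeneic array 2 it was 1 with 1.67, and without syngeneic array 3 or 4 it was 0 with 0.75 or 0.81. Without the arrays of high Gapdh ratio it was 0 with 0.71. Cxcl9, a T cell attractant, read 12.78, 11.25, 7.07 and 7.24 against 12.91, 11.83, 12.69 and 12.03 (2.79 ± 0.9, adjusted p = 0.136). Cxcl10, its relative, read 11.09, 9.42, 6.57 and 7.16 against 10.98, 9.75, 11.01 and 10.49 (2 ± 0.7, adjusted p = 0.172). Iigp1, an immunity-related GTPase, read 13.11, 13.83, 10 and 10.18 against 14.09, 13.5, 13.9 and 13.52 (1.98 ± 0.62, adjusted p = 0.128). Each gene showed the same split of the syngeneic arrays and a narrow anti-IFNAR1 group.

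**Figure D2:**
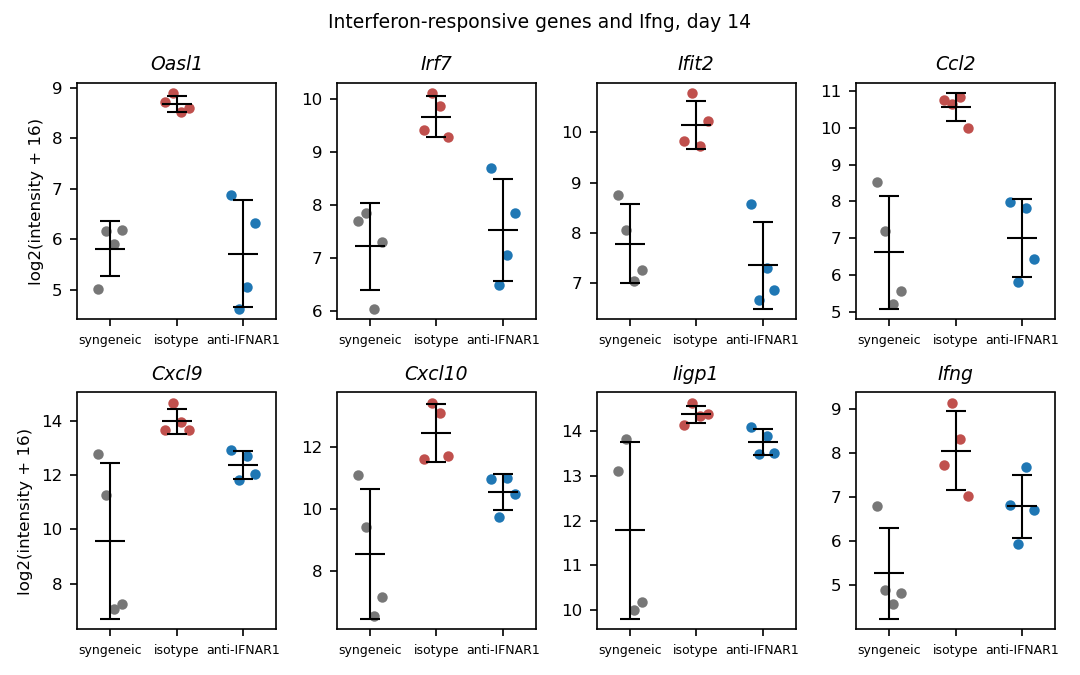
Per-array log2(intensity + 16) of 7 interferon-responsive genes and Ifng at day 14 in syngeneic (grey), isotype (red) and anti-IFNAR1 (blue) skin, with means and SD. For Oasl1 the anti-IFNAR1 arrays (4.63 to 6.87) overlap the syngeneic arrays (5.02 to 6.18) below the isotype arrays (8.51 to 8.89), while for Cxcl9 the syngeneic arrays split between 7.07 and 12.78.

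Promoters of 2 interferon-responsive genes that were not called and of 2 genes that rose under blockade are shown, because both kinds hold a motif of the interferon-stimulated response element. They are the 250 bases before the gene start in RefSeq on GRCm38.p6, read in the direction of the gene, and capitals mark matches to the motif GAAANNGAAA on either strand. The windows are chr19:34583279-34583528 (plus strand) for Ifit3, chr5:92348890-92349139 (minus strand) for Cxcl10, chrX:9469325-9469574 (minus strand) for Cybb and chr7:46715677-46715926 (minus strand) for Saa3.
Ifit3: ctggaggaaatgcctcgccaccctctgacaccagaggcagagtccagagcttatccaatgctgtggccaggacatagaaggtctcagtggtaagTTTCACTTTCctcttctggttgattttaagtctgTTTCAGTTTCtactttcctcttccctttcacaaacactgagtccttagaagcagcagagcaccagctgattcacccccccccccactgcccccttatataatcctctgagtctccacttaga
Cxcl10: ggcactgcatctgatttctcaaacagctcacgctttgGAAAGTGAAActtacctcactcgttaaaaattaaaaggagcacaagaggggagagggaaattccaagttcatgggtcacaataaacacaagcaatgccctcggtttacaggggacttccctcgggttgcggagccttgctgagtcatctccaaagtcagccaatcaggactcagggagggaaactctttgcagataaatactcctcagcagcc
Cybb: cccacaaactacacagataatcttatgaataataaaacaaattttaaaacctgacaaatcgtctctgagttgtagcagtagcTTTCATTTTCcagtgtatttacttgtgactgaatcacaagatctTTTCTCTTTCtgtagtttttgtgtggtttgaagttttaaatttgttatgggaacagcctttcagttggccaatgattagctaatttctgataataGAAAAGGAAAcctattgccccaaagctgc
Saa3: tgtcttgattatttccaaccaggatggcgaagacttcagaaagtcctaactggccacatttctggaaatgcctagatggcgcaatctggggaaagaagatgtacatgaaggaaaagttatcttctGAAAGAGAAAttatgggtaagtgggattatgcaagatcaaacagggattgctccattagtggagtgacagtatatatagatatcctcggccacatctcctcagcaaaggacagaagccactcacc
These windows hold 2 matches for Ifit3, 1 for Cxcl10, 3 for Cybb and 1 for Saa3. Over windows of 300 bases around gene starts, the motif occurred in the promoters of 1079 of 27025 genes (3.99%). It occurred in 7 of the 50 called higher genes that have a promoter in the table (14%), namely Aoah, Cd300c2, Clec4d, Ctss, Cybb, Pex26 and Saa3, and in 4 of 106 called lower genes (3.77%). Among type I interferon-inducible genes it occurred in 10 of 19 (52.6%) and among interferon gamma-inducible genes in 8 of 11 (72.7%). A second motif searched, TTCNNNGAA, occurred in 2582 of the 27025 genes (9.55%). It occurred in 4 of the 50 called higher genes (8%) and 12 of the 106 called lower genes (11.3%). Among type I interferon-inducible genes this motif occurred in 4 of 19 (21.1%) and among interferon gamma-inducible genes in 4 of 11 (36.4%). The 27025 genes are all those with a promoter window, not only those on the array. A match is a description of these letters and not a binding site.

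Few antigen presentation genes were called. Of 14 class I genes 0 were called, with a median of 0.7 and every gene above 0. The mean over the class I list read 11.92, 11.7, 10.55 and 10.34 in syngeneic and 11.95, 11.62, 11.9 and 11.71 in anti-IFNAR1 skin, with syngeneic arrays 1 and 2 inside the anti-IFNAR1 range. The class I median was 0.43 without syngeneic array 4 and 0.42 without the arrays of high Gapdh ratio. Psmb8, an immunoproteasome subunit, read 12.52, 12.46, 10.32 and 10.4 in syngeneic and 12.88, 12.35, 12.84 and 12.65 in anti-IFNAR1 skin (1.25 ± 0.38, adjusted p = 0.117). Of 10 class II genes 1 rose and 0 fell, with a median of 0.92, and of 0.4 without the arrays of high Gapdh ratio. That gene was Ctss, the protease cathepsin S that trims the class II invariant chain, at 14.55, 13.76, 12.69 and 12.75 against 14.93, 14.47, 15.23 and 14.81 (1.42 ± 0.33, adjusted p = 0.0412). Cd74, the invariant chain, read 14.13, 14.36, 13.82 and 13 against 14.81, 14.66, 14.95 and 14.93. Its groups did not overlap, and at 1.01 ± 0.25 it missed the threshold (adjusted p = 0.0575). Ctss lost its call without any anti-IFNAR1 array or without syngeneic array 3 or 4. Without syngeneic array 1 the class I list held 3 called genes, and without syngeneic array 2 the lists held 4 (class I) and 3 (class II). Centring the array medians gave 3 and 4. The median of class II genes in isotype against syngeneic skin was 0.8, and in anti-IFNAR1 against isotype skin 0.17. These comparisons share arrays with the one described.

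The acute-phase gene Saa3, made by inflamed tissue and macrophages, read 10.41, 9.01, 7.03 and 8.22 in syngeneic and 12.2, 11.27, 13.78 and 11.95 in anti-IFNAR1 skin. The groups did not overlap, and it rose by 3.63 ± 0.77 (adjusted p = 0.0315) as the 1 called of 13 complement and acute-phase genes. Saa1, its relative, read 4.77, 4.55, 4.41 and 4.56 against 5.25, 4.47, 4.82 and 4.55 (0.2 ± 1, adjusted p = 0.987). The neutrophil-associated Lcn2, an iron-siderophore binding protein, read 10.48, 8.48, 5.09 and 4.94 against 7.52, 6.8, 7.98 and 6.25 (-0.11 ± 1.22, adjusted p = 1). The cytokine gene Il6 differed by -0.19 ± 0.82 (adjusted p = 0.986), and 0 of 25 cytokine genes were called. Vcam1, an adhesion molecule by which leukocytes leave vessels, read 10.36, 8.71, 7.37 and 7.8 against 10.83, 10.02, 11.37 and 10.38 (2.09 ± 0.46, adjusted p = 0.0352). Its groups overlapped at syngeneic array 1, and it was the 1 called of 14 endothelial genes, whose median was -0.41 and -0.1 without syngeneic array 2. Both Saa3 and Vcam1 lost their calls without anti-IFNAR1 array 1, 3 or 4 or syngeneic array 3 or 4. They were also lost without the arrays of high Gapdh ratio and without those of high hair follicle mean. Without syngeneic array 2 the acute-phase list held 3 called genes, and without syngeneic array 4 the endothelial list held 1 lower and 0 higher.

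Of 19 keratinocyte stress genes 0 were called, with a median of 0.89 and 14 of them above 0. Krt6b, a keratin of injured epidermis, read 12.15, 6.54, 5.72 and 5.83 in syngeneic and 14.07, 10.24, 13.65 and 12.18 in anti-IFNAR1 skin. Syngeneic array 1 lay within the anti-IFNAR1 range and the other syngeneic arrays far below it (4.97 ± 1.69, adjusted p = 0.159). Krt16, a partner keratin, read 10.47, 8.95, 8.5 and 8.41 against 12.68, 10.3, 11.8 and 10.9 (2.34 ± 0.95, adjusted p = 0.245). Stfa3, a cystatin-like protease inhibitor, read 10.75, 10.43, 7.61 and 8.47 against 13.13, 11.49, 12.75 and 11.7, without overlap (2.95 ± 1, adjusted p = 0.159). Krt14, the keratin of basal keratinocytes, was at 14.03 to 14.57 in syngeneic and 14.46 to 14.94 in anti-IFNAR1 skin, and Krt10, of the layers above, at 15.46 to 15.9 and 15.62 to 16.04. Both keratins were abundant on all 8 arrays, as skin is the labelled tissue.

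Matrix genes were mostly not called at this day. Of 29 matrix and fibrosis genes 0 rose and 1 fell, with a median of -0.37, and of -0.17 without anti-IFNAR1 array 3. Comp, a matrix protein that binds collagen, read 7.61, 6.66, 7.42 and 8.67 in syngeneic and 5.58, 6.07, 5.57 and 6.02 in anti-IFNAR1 skin. The groups did not overlap, and Comp fell by 1.78 ± 0.39 (adjusted p = 0.0352). Col1a1, a chain of type I collagen, read 10.09, 12.68, 12.24 and 11.08 against 11.38, 11.84, 9.56 and 11.26 (-0.51 ± 0.78, adjusted p = 0.923), and Col3a1, type III collagen, differed by 0.08 ± 0.45 (adjusted p = 0.989). Tnc, tenascin C of wounded skin, read 8.23, 7.07, 6.42 and 5.75 against 10.36, 8.55, 8.24 and 8.42 (2.03 ± 0.96, adjusted p = 0.345). Its groups were separate although it was not called. Comp lost its call without any anti-IFNAR1 array and without syngeneic array 1, 3 or 4, and also after quantile normalization or centring.

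**Figure D3:**
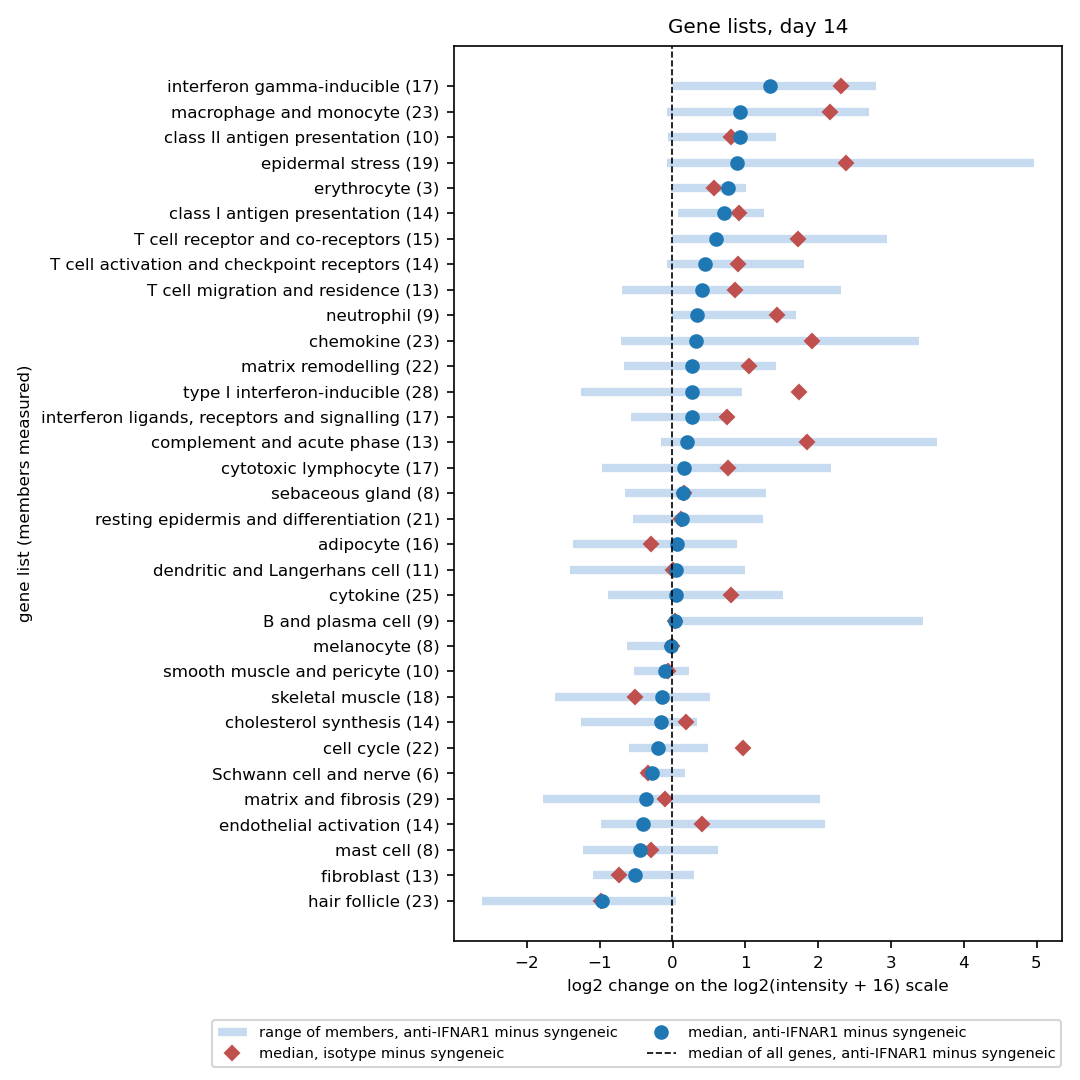
Median log2 change at day 14 of each of 33 gene lists for anti-IFNAR1 minus syngeneic (blue circles, with bars from the lowest to the highest member) and for isotype minus syngeneic (red diamonds), on the log2(intensity + 16) scale. The type I interferon-inducible list has medians of 0.26 and 1.73 and the interferon gamma-inducible list 1.34 and 2.31; both comparisons use the same syngeneic arrays.

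The largest fall was smaller than the largest rise, and no list held more than 1 of the falls. Sncg, gamma-synuclein of sensory nerve and fat, read 11.46, 11.25, 10.6 and 10.79 in syngeneic and 8.59, 8.92, 8.61 and 9.16 in anti-IFNAR1 skin. With no overlap it fell by 2.21 ± 0.41 (adjusted p = 0.0181). Dnm1, a dynamin of synaptic endocytosis, read 8.28, 7.74, 9 and 8.89 against 6.45, 7.05, 6.24 and 7.2, again apart (-1.74 ± 0.33, adjusted p = 0.0184). Isl1, a homeodomain transcription factor, read 7.89, 7.51, 7.91 and 7.73 against 6.02, 6.58, 6.55 and 6.55 (-1.34 ± 0.3, adjusted p = 0.0387). Septin3, a cytoskeletal GTPase of neurons, changed by -1.9 ± 0.42 (adjusted p = 0.0377) by its brightest probe set, and another probe set gave 0.57, so the gene's direction is uncertain. Gfra2, a receptor for neurturin, fell by 1.1 ± 0.23 (adjusted p = 0.0311). Other probe sets gave -0.01 for Dnm1, -0.11 for Isl1 and -1.03, 0, 0 and 0 for Gfra2. Apart from the one at -1.03 these were dim, with means of 4.33 to 4.6. The list of Schwann cell and nerve markers held 0 called genes of 6, with a median of -0.28, and of -0.05 without syngeneic array 3.

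Kcp, a secreted modulator of bone morphogenetic proteins, read 6.86, 6.85, 7.1 and 7.53 in syngeneic and 6.04, 6.04, 5.87 and 6.05 in anti-IFNAR1 skin, and fell by 1.09 ± 0.15 (adjusted p = 0.00319). Tuba1a, an alpha-tubulin, read 14.18, 13.82, 14.31 and 14.22 against 13.17, 13.15, 13.34 and 13.22 (-0.91 ± 0.15, adjusted p = 0.013). Both groups of anti-IFNAR1 arrays were narrow and fully below the syngeneic arrays. Prkag2, a subunit of the energy sensor AMPK, changed by -1.23 ± 0.21 (adjusted p = 0.0137), and its other probe sets gave -1.22, -0.8 and 0. Psmd2, a proteasome subunit, fell by 1.16 ± 0.27 (adjusted p = 0.0403). Socs5, a suppressor of cytokine signalling, fell by 1.19 ± 0.27 (adjusted p = 0.0421) by its brightest probe set, while another gave 0.05. Kcp and Tuba1a kept their calls without each array. Sncg lost its call without anti-IFNAR1 array 1 or 3, Prkag2 without anti-IFNAR1 array 3, and Dnm1 without anti-IFNAR1 array 1 or 3 or syngeneic array 3. Gfra2 lost it without anti-IFNAR1 array 1, 2 or 4 or syngeneic array 1 or 4. Psmd2 lost it without any anti-IFNAR1 array or without syngeneic array 1 or 3. Isl1, Septin3 and Socs5 lost it without any anti-IFNAR1 array and without syngeneic array 1, 3 or 4. Septin3, Isl1, Socs5 and Gfra2 were not called after quantile normalization or centring. None of these named falls was called without the arrays of high Gapdh ratio.

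**Figure D4:**
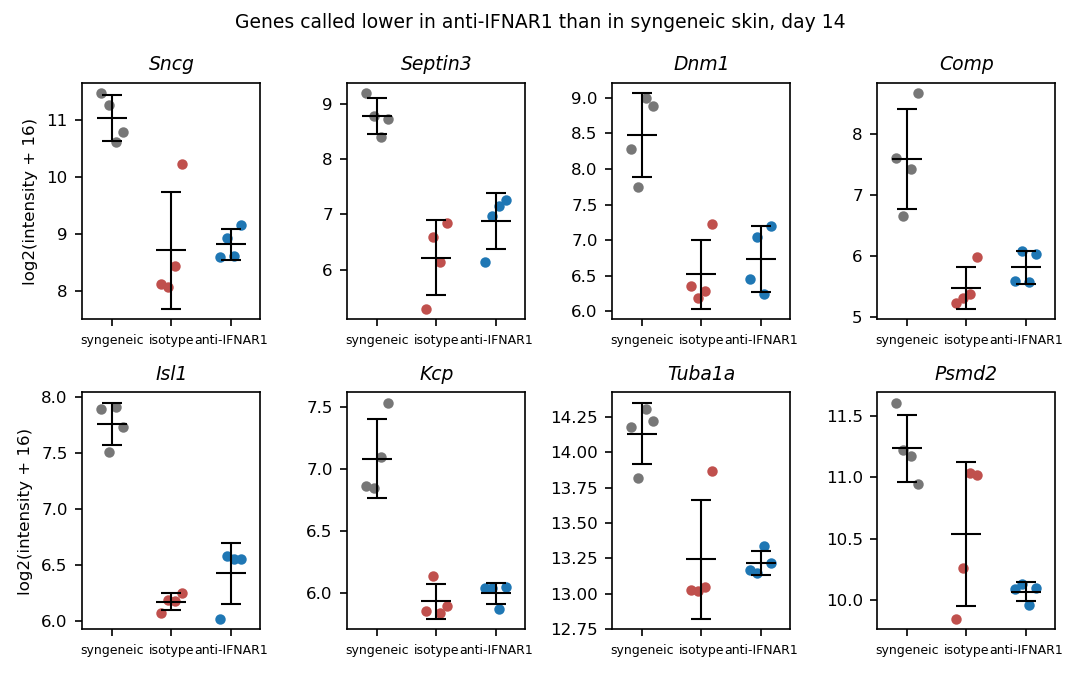
Per-array log2(intensity + 16) of 8 genes called lower in anti-IFNAR1 than in syngeneic skin at day 14, with 4 arrays each of syngeneic (grey), isotype (red) and anti-IFNAR1 (blue) skin, means and SD. For Kcp the anti-IFNAR1 arrays (5.87 to 6.05) lie below the syngeneic arrays (6.85 to 7.53) and among the isotype arrays (5.84 to 6.14).

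Set beside isotype skin, the T cell and chemokine genes fell into those that also differed between the allografted groups and those without a call there. The comparisons share the anti-IFNAR1 or the syngeneic arrays, so their values are given side by side. Calls against isotype skin were not checked with fewer arrays or other processing. Cd3d in isotype skin was 4.28 ± 0.23 above syngeneic skin, and anti-IFNAR1 differed from isotype by -1.34 with a 95% interval from -1.81 to -0.87 (adjusted p = 0.0102). For Ccl3 these values were 3.78 ± 0.36 and -1.89 from -2.65 to -1.14 (adjusted p = 0.0188). Cd3g, Ms4a7 and Trav9d-3 were likewise above syngeneic and below isotype skin, at -1.75 (adjusted p = 0.01), -1.5 (adjusted p = 0.0374) and -0.99 (adjusted p = 0.0228) against isotype. Cd8a was 2.75 ± 0.27 above syngeneic in isotype skin and differed by -0.69 from -1.25 to -0.12 between the allografted groups, which was not called (adjusted p = 0.203). Jchain was 3.94 ± 0.59 above syngeneic in isotype skin, with a difference of -0.5 from -1.75 to 0.74 (adjusted p = 0.761). The interval for F7 ran from -1.22 to 1.12 and that for Sncg from -0.74 to 0.96, so the missing calls do not show that the allografted groups act alike. Cd8b1 and Pdcd1, uncalled against syngeneic skin, were lower than in isotype skin by -1.74 (adjusted p = 0.00286) and -1.72 (adjusted p = 0.00286).

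Among the 93 genes examined, 6 were called with anti-IFNAR1 skin above both other groups or below both. They were chosen after their values were seen, and both comparisons use the same anti-IFNAR1 arrays. Of all 18193 genes, 0.341% were called higher and 0.781% lower against syngeneic skin, and 0.813% in either direction against isotype skin. Angptl7, an angiopoietin-like secreted protein, read 4.61, 4.55, 4.57 and 4.6 in syngeneic, 4.59, 4.58, 4.65 and 4.94 in isotype and 5.24, 5.23, 4.99 and 4.96 in anti-IFNAR1 skin. It rose by 0.52 ± 0.08 against syngeneic (adjusted p = 0.00354) and by 0.41 against isotype skin (adjusted p = 0.0174). Pex26, a peroxisome assembly protein, read 6.86, 7.42, 7.51 and 7.32 in syngeneic and 7.88, 8.08, 7.8 and 7.97 in anti-IFNAR1 skin. It rose by 0.66 ± 0.15 (adjusted p = 0.0377) and 0.7 (adjusted p = 0.0298) in the same order. Lncpint, a long non-coding RNA, rose by 0.68 ± 0.14 and 0.67, with its anti-IFNAR1 arrays at 4.82, 4.64, 5.33 and 5.76. Adam4, a membrane protein of the ADAM family, rose by 0.23 ± 0.04 and 0.26, from values near background. Ap2m1, a subunit of the clathrin adaptor, read 11.42, 10.83, 11.16 and 11.48 in syngeneic and 10.69, 10.28, 10.41 and 10.64 in anti-IFNAR1 skin. It changed by -0.72 ± 0.15 (adjusted p = 0.0309) and -0.65 (adjusted p = 0.0488). Csrp2, a LIM domain protein, changed by -0.63 ± 0.12 and -0.58.

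The levels of Lncpint and Adam4 were highest on anti-IFNAR1 arrays 3 and 4, which are also those with the highest Gapdh ratios of the group. Without the arrays of high Gapdh ratio their changes were 0.27 (adjusted p = 0.04) and 0.14 (adjusted p = 0.0043), and that of Angptl7 was 0.66 (adjusted p = 0.025). Angptl7 kept its call against syngeneic skin without each array, and Adam4 lost it without anti-IFNAR1 array 4. Lncpint lost it without anti-IFNAR1 array 3 or syngeneic array 1, 3 or 4, and Csrp2 without anti-IFNAR1 array 3 or 4. Pex26 lost it without any anti-IFNAR1 array or syngeneic array 1 or 4, and Ap2m1 without any array other than syngeneic array 2. Ap2m1 and Csrp2 were not called after quantile normalization or centring.

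Markers of other cells of the skin held 0 called genes. The medians were 0.33 over 9 neutrophil genes, 0.05 over 11 dendritic and Langerhans cell genes and -0.45 over 8 mast cell genes. They were 0.06 over 16 adipocyte, -0.15 over 18 skeletal muscle, -0.52 over 13 fibroblast and -0.97 over 23 hair follicle genes. The neutrophil median was 0 without anti-IFNAR1 array 3 and -0.01 without the arrays of high Gapdh ratio. Without syngeneic array 3 the hair follicle median was -0.14. The fit without arrays of hair follicle mean above 8 gives the same value, as that array is the only day 14 array it leaves out. Adipoq, an adipocyte hormone, was at 10.66 to 13.14 in syngeneic and 11.24 to 12.43 in anti-IFNAR1 skin, and Acta1, of skeletal muscle, at 14.9 to 15.64 and 14.69 to 15.38. Both tissues were thus represented on all 8 arrays at overlapping levels. Medians over 22 cell cycle genes were -0.2 against syngeneic and -0.98 against isotype skin, with 0 called in either. The median against syngeneic skin was 0.1 without syngeneic array 1, so its sign depends on that array.

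**Figure D5:**
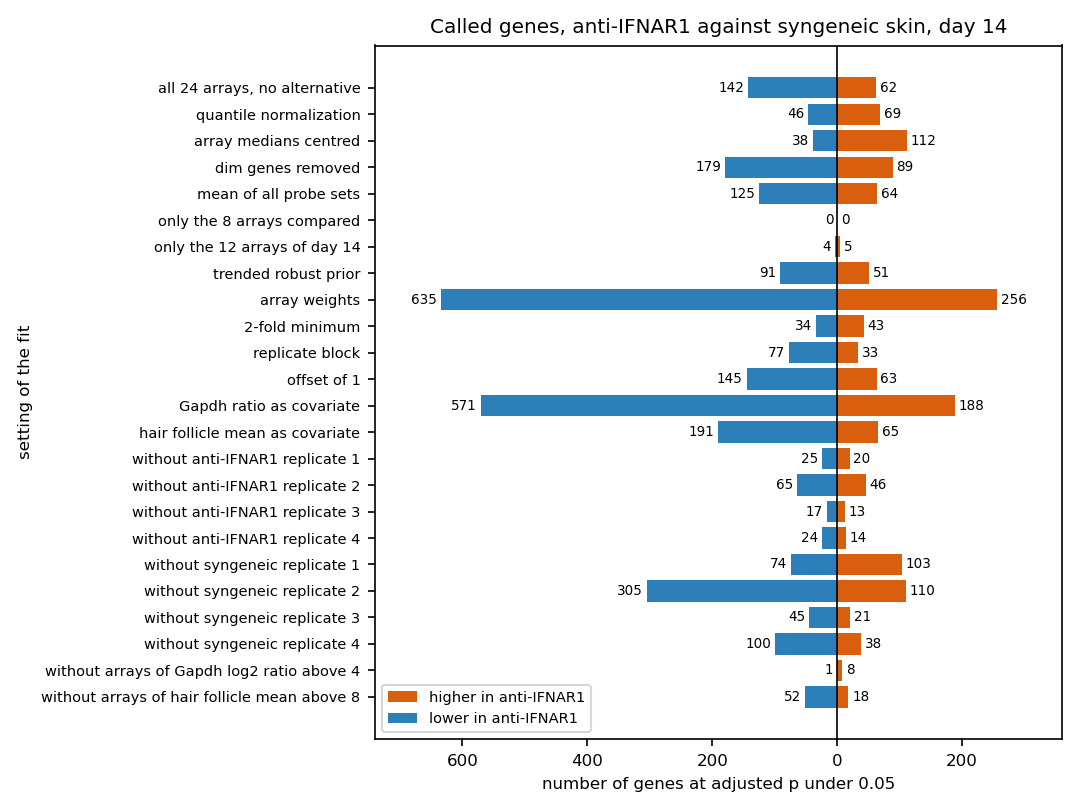
Number of genes called higher and lower in anti-IFNAR1 than in syngeneic skin at day 14 by limma under each processing setting and with each array left out. The count runs from 0 with only the 8 arrays compared to 891 with array weights, beside 62 higher and 142 lower in the fit of all 24 arrays.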

How the data were processed

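Expression was measured on Affymetrix mouse arrays from total RNA of skin, labelled with biotin per the labels' protocols. The deposited values, 1 per probe set, are linear intensities between 1.68 and 92640.3. The authors' summary, background correction and normalization of these intensities are not given in the sources used here. The median intensity of an array ran from 14.84 to 17.71 in the day 14 groups, and the number of arrays limits the precision. No 2 arrays held identical values. Of 45101 probe sets, 64 controls, 932 with several gene symbols and 9160 not listed in the platform annotation were left out. The other 34945 carried 1 symbol, brought to current names by identifier for 34741. Each of 18193 genes was represented by the probe set of highest mean over the 24 arrays. Genome positions of probe sets were not used here.

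Values were analysed as log2(intensity + 16) without further normalization, and the offset of 16 understates changes of dim genes. No filter on low values was set. Group means were fitted over all 24 arrays (6 groups of 4) with lmFit and eBayes of limma 3.58.1 in R 4.3.3. The fit had 18 residual and 0.71 prior degrees of freedom. Tests were two-sided, with Benjamini-Hochberg adjustment over all genes of a comparison, and called means an adjusted p under 0.05. Every adjusted p in the text is from limma. The script was tested on simulated data with known changes and independent noise. That simulation held no split of the arrays within a group, so it does not check the error rate of the calls made here.

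The 33 gene lists had 565 members, of which 512 were measured, and are described by counts and medians only. The comparison, its members and the lists were chosen with earlier results of these data known. The naming rule took the 15 largest changes each way among called genes without overlap between the groups, up to 4 called members of each list, the 6 largest called changes each way outside the lists, and Ifnar1, Ifnar2, Rag1, Rag2, Ifng, Ifnb1, Oasl1, Irf7, Cxcl9, Cxcl10 and Ccl2. It named 62 genes. Another 45 of the 93 genes examined for the text fall outside it and were chosen after their values were seen, as were the genes listed by their calls without each array. Promoter letters are from RefSeq on GRCm38.p6, matched by symbol, for 50 of 62 called higher and 106 of 142 called lower genes.

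Alternatives were quantile normalization, centred medians, removal of dim genes, the mean of all probe sets, fits of fewer arrays, another prior, an offset of 1, a block for the replicate number, array weights, covariates, a minimum of 2-fold and leaving out each array. The fits without arrays of high Gapdh ratio or hair follicle mean were added after the array values had been seen. All alternatives were run for anti-IFNAR1 against syngeneic skin only.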

Additional observations from a re-analysis of the deposited data

Results flagged for a closer look

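For the 93 genes examined, both groups of 4 arrays were searched for an array far from the other 3, which chance gives in about 1 in 20 groups, and 17 of 186 groups held one. On syngeneic array 1 this was a high value of Cd3d (5.18, others 4.39 to 4.48), Clec4d (8.05, others 4.81 to 4.92), Ifng (6.81, others 4.58 to 4.9), Krt6b (12.15, others 5.72 to 6.54) and Il6 (6.42, others 4.39 to 4.52), and a low one of Ms4a7 (6.78, others 7.34 to 7.44). Syngeneic array 3 was low for Cd300c2 (6.03, others 6.96 to 7.06) and Slfn4 (7.93, others 8.56), and syngeneic array 4 was high for Mertk (8.85, others 7.8 to 7.89). Anti-IFNAR1 array 1 was low for Isl1 (6.02, others 6.55 to 6.58) and high for Tnc (10.36, others 8.24 to 8.55). Anti-IFNAR1 array 2 was low for Trav9d-3 (6.88, others 7.77 to 7.91) and Tap1 (11.34, others 11.71 to 11.72). Anti-IFNAR1 array 3 was low for Kcp (5.87, others 6.04 to 6.05) and Col3a1 (13.22, others 14.63 to 14.73), and high for Il6 (5.58, others 4.49 to 4.52) and Rag2 (4.65, others 4.59).

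The change against syngeneic skin differed between isotype and anti-IFNAR1 skin in 21 of the 93 genes, by limma's test of anti-IFNAR1 minus isotype. Of all 18193 genes, 148 were called in that test (0.813%). Among the 93 genes, 45 were chosen after their values were seen, so these shares are not comparable. No alternative fit was run for that test. Gapdh log2 ratios ran from 0.62 to 2.16 on isotype and from 2.13 to 4.81 on anti-IFNAR1 arrays, and their part in these differences was not tested. The differences were -3.55 for Ccl2, -3.38 for Ccl7, -3.09 for Slfn4, -2.96 for Oasl1, -2.79 for Ifit2, -2.3 for Mx1 and -2.14 for Irf7. They were -1.9 for Itgam, -1.89 for Ccl3, -1.75 for Cd3g, -1.74 for Cd8b1, -1.72 for Pdcd1, -1.5 for Ms4a7, -1.34 for Cd3d and -0.99 for Trav9d-3. Smaller ones were -0.65 for Ap2m1, -0.58 for Csrp2, 0.26 for Adam4, 0.41 for Angptl7, 0.67 for Lncpint and 0.7 for Pex26.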

How the results depend on the processing

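All 48 called genes examined for the text kept their direction under the 23 alternatives, but most calls did not hold under all of them. The total of 204 called genes (62 higher, 142 lower) was 115 after quantile normalization (46 lower) and 112 higher with 38 lower after centring of the array medians. With only the 8 arrays compared limma called 0, 0 higher and 0 lower, with 1982 genes at an unadjusted p under 0.05. With the 12 arrays of day 14 it called 9, 5 higher and 4 lower, with 2127 at an unadjusted p under 0.05. These fits changed both the residual degrees of freedom and the arrays that give the spread. Array weights gave 891 (256 higher, 635 lower), the Gapdh ratio as a covariate 759 (188 higher, 571 lower) and a trended robust prior 91 lower. A 2-fold minimum left 77, of which 34 were lower. Leaving out 1 array at a time gave 30 to 415 genes, 13 to 110 higher and 17 to 305 lower. Without the arrays of Gapdh log2 ratio above 4 the counts were 9, 8 higher and 1 lower, and without those of hair follicle mean above 8 they were 70, 18 higher and 52 lower. Removal of dim genes, the mean of all probe sets, an offset of 1 and the hair follicle covariate kept all 3 counts within 1.5 times. The cause of these shifts was not tested.

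With the replicate number of the titles as a block, 110 genes were called, 33 higher and 77 lower. Deviations of the same-numbered arrays of both groups correlated at 0.13, 0.26, -0.45 and 0.6 over the 4548 most variable genes, which shows no steady pairing. Arrays of different numbers were not compared, so the values cannot decide whether the numbers pair the arrays.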

Other observations

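Called genes outside the lists included Dtx3l, an E3 ligase of the DNA damage response, which read 8.16, 9.82, 9.2 and 9.93 in syngeneic and 11.34, 10.66, 10.97 and 11.64 in anti-IFNAR1 skin. It rose by 1.88 ± 0.45 (adjusted p = 0.0489) by its brightest probe set, and another gave 0.14. Cldnd1, a claudin-domain membrane protein, read 8.17, 9.55, 9.91 and 9.07 against 11.25, 10.84, 10.31 and 11.6 (1.83 ± 0.43, adjusted p = 0.0453). Its other probe sets gave -0.5 and 0.75, so its direction is uncertain. Both genes lost their calls without any anti-IFNAR1 array and without syngeneic array 1, 3 or 4. Both also missed the threshold after quantile normalization and with the mean of all probe sets.

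Several inflammatory genes that were not called against syngeneic skin had their widest spread among isotype arrays. Saa1 read 11.61, 7.66, 11.96 and 4.78 in isotype skin, and anti-IFNAR1 differed from isotype by -4.23 with a 95% interval from -6.32 to -2.14 (adjusted p = 0.053). Lcn2 read 14.44, 11.6, 12.45 and 8.34 in isotype skin (-4.57 from -7.12 to -2.02, adjusted p = 0.0742). Isotype array 4 was the lowest of its group for both, as for Krt6b, where it read 7.83 against 15.4 to 15.75 on the other isotype arrays. Thbs1, a matrix glycoprotein, differed by -3.24 from -5.03 to -1.45 between anti-IFNAR1 and isotype skin (adjusted p = 0.0739), and by -0.58 ± 0.86 between anti-IFNAR1 and syngeneic skin (adjusted p = 0.917).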
